A study of Mus musculus with 6 samples.

Results

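The 10 genes described here encode inhibitors of MAP kinase signaling, most of them feedback inhibitors of its ERK branch: 6 dual-specificity phosphatases (*Dusp1*, *Dusp2*, *Dusp4*, *Dusp5*, *Dusp6* and *Dusp10*), 3 Sprouty proteins (*Spry1*, *Spry2* and *Spry4*) and *Spred1*. They were chosen by name as a family, 10 of the 56748 genes in each table, and all 10 passed the filter on low counts that left 16605 genes for testing. RNA of whole uteri was compared between 3 control and 3 *Gp130* ecKO samples. The females were sexually mature, on a C57BL/6 background (C57BL/6J in the methods) and mated with fertile wildtype males. They were sampled at 1600 h on day 4 of pregnancy, shortly before embryo attachment. *Gp130* ecKO females, in which *Gp130* is deleted from the epithelium, carried an iCre allele at *Ltf* and floxed *Gp130*. Control females are wildtype in the labels, while the methods allow floxed females without iCre as well. The *Ltf* promoter drives iCre in the uterine epithelium of the adult female, and the RNA also held stroma, muscle, vessels and blood. The uteri are numbered in the labels, which do not say whether each was 1 female, so the tests measure the spread between these libraries. ERK activity itself was not measured in these files.

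ERK is switched on by phosphorylation downstream of RAS, RAF and MEK, and it drives transcription of its own inhibitors within minutes to hours. Dual-specificity phosphatases remove both phosphates from a MAP kinase, Sprouty proteins act between the receptor and RAF, and Spred proteins bring neurofibromin to the membrane, where it inactivates RAS. Because these transcripts are short lived and follow ERK output, they are widely used as a readout of the pathway. Growth factors of the EGF and FGF families signal through ERK between uterine stroma and epithelium around implantation, and Gp130 cytokines such as LIF can activate ERK beside STAT3.

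*Il6st*, which encodes Gp130, was measured in CPM, the usual count relative to a TMM-scaled library. It was at 631, 678 and 452 CPM in control 1, 2 and 3 and at 388, 349.8 and 362 CPM in *Gp130* ecKO 1, 2 and 3. Each *Gp130* ecKO value lay below each control value (log2 fold change −0.68, SE 0.21). The adjusted p was 0.120 in the quasi-likelihood test of edgeR, 0.103 in its exact test and 0.0346 by DESeq2. Libraries held 13960748 (control 3) to 25906443 expected counts, so weakly expressed genes were measured least precisely in control 3. In a multidimensional scaling, control 2 lay between the other control uteri and the *Gp130* ecKO uteri. Markers of 3 cell types also differed between the groups. Of 7 epithelium markers, 4 were higher at an unadjusted p below 0.05 (12.1% of all tested genes). Their summed CPM over all 7 was 2069.9 to 3848 in the control and 5688 to 8023 in *Gp130* ecKO. Its members did not move alike, since mean CPM was 563 in the control and 2549.9 in *Gp130* ecKO for *Calb1*, 192 and 879.7 for *Krt19*, and 459 and 402 for *Epcam*, so the sum may not follow the number of epithelial cells. The summed CPM of 7 stroma markers was 2644 to 3045 against 1296 to 1803, with 6 of the 7 lower at such a p (12.9% of all tested genes). For 5 endothelium markers the sum was 342 to 820.1 against 185 to 332, with all 5 lower. Sums overlapped between the groups for markers of smooth muscle, glands, leukocytes and erythrocytes. No marker list had a gene at 0 in the group means. None of the 36 marker genes had an FDR below 0.05 in the quasi-likelihood test. In DESeq2 11 had one (14.3% of all genes), and in the exact test of edgeR 7 had one (8.99% of all genes).

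Of the 10 feedback genes, 9 had a lower fitted level in *Gp130* ecKO and 1, *Spred1*, a higher one, with a median log2 fold change of −1.0 beside −0.05 over all tested genes. In 6 of the 10 (*Dusp2*, *Dusp4*, *Dusp5*, *Dusp6*, *Dusp10* and *Spry4*) every *Gp130* ecKO uterus lay below every control uterus, a pattern seen in 15.6% of all tested genes. *Spred1* lay above in every *Gp130* ecKO uterus, as did 15.7% of all genes. The same 6 were lower at an unadjusted p below 0.05 (12.9% of all genes) and *Spred1* was higher (12.1% of all genes). None passed the threshold of an FDR below 0.05 with more than 2-fold change in the quasi-likelihood test, which 0.0301% of all genes passed in the lower direction. In whole-tissue RNA, fewer cells that express a gene and less RNA of that gene per cell cannot be told apart, which holds for each value given here.

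**Figure D1:**
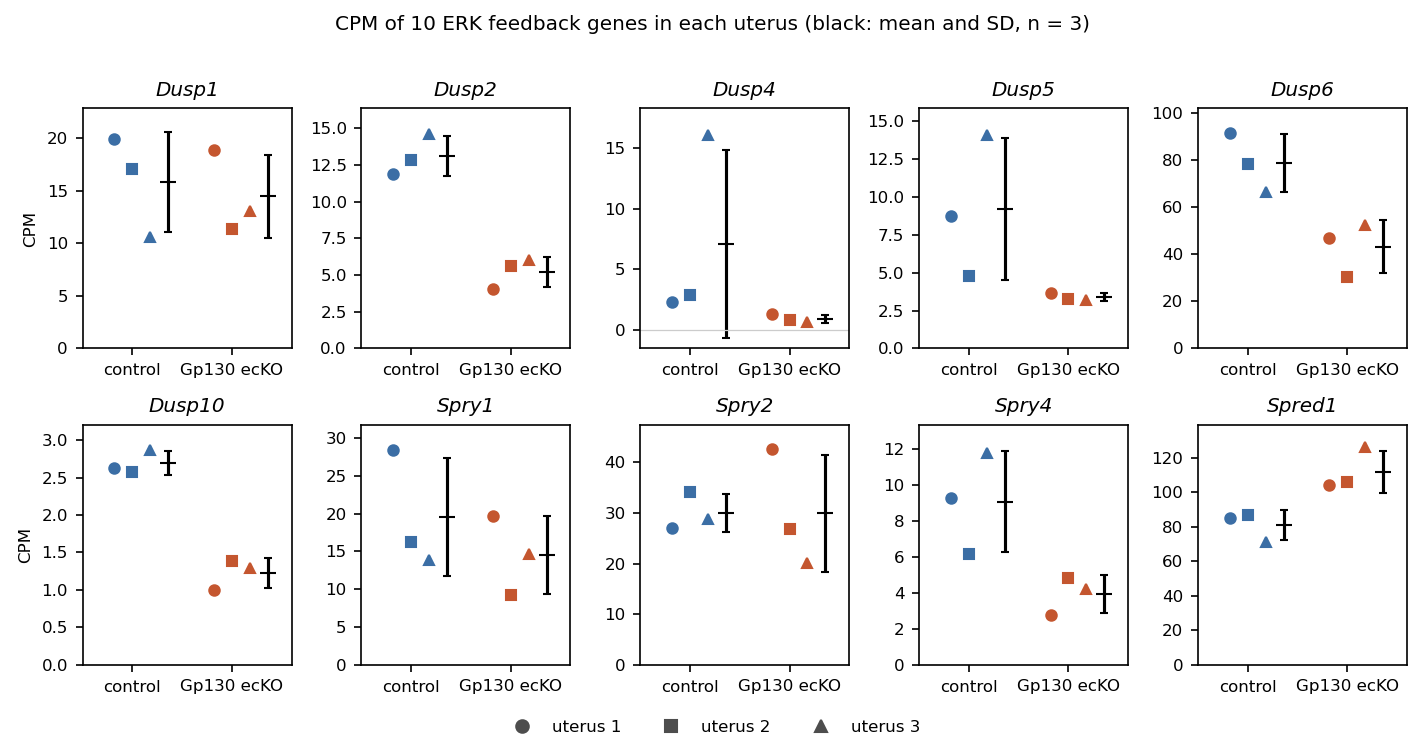
CPM (vertical axis of each panel, from 0) of the 10 genes in 3 control and 3 *Gp130* ecKO uteri, with circles, squares and triangles for uterus 1, 2 and 3 and black bars for the mean and SD. The groups are separate for *Dusp2*, *Dusp4*, *Dusp5*, *Dusp6*, *Dusp10*, *Spry4* and *Spred1*, and they overlap for *Dusp1*, *Spry1* and *Spry2*; the wide SD of *Dusp4* in the control comes from control 3 at 16.1 CPM.

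The plot of CPM by uterus shows the groups as clusters that are tight for *Dusp2* and *Dusp10* and wide in the control for *Dusp4* and *Dusp5*. Control 3 was the highest control uterus for 5 of the 10 genes and the lowest for 4. The 5 were *Dusp2*, *Dusp4*, *Dusp5*, *Dusp10* and *Spry4*, all among the 6 genes that were lower in *Gp130* ecKO, while the sixth, *Dusp6*, was lowest there.

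Promoter sequences are shown for genes that were lower (*Dusp2*, *Dusp5* and *Dusp6*), higher (*Spred1*) or overlapping (*Dusp1*), so that their start regions can be compared. RefSeq promoters of GRCm38.p6, which span 250 bases before to 50 bases after the start of a gene, matched 8 of the 10 genes by symbol; *Dusp4* and *Spry4* were not matched. The 250 bases before the start are given here, 5′ to 3′ on the strand of the gene, with motif matches in capitals. They are chr17:26508473-26508722 (minus strand) for *Dusp1*, chr2:127335909-127336158 (plus) for *Dusp2*, chr19:53528895-53529144 (plus) for *Dusp5*, chr10:99262981-99263230 (plus) for *Dusp6* and chr2:117120821-117121070 (plus) for *Spred1*.
Dusp1: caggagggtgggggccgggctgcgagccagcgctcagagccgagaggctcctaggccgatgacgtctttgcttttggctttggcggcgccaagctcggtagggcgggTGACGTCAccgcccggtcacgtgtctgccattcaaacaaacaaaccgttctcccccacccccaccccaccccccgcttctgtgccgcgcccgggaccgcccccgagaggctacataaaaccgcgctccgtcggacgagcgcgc
Dusp2: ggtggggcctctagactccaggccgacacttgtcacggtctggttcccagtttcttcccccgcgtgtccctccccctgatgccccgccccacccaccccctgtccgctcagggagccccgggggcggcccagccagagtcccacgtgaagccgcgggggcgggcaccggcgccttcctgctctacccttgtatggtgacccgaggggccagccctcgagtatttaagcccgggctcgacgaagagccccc
Dusp5: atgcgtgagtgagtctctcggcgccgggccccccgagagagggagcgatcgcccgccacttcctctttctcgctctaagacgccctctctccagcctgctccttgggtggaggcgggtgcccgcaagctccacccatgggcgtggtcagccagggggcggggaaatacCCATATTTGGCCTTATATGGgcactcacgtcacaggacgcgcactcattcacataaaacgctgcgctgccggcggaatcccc
Dusp6: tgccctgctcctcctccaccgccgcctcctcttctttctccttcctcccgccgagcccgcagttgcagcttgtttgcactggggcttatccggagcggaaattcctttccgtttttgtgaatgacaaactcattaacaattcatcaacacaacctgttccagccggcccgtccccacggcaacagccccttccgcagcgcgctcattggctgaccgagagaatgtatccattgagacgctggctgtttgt
Spred1: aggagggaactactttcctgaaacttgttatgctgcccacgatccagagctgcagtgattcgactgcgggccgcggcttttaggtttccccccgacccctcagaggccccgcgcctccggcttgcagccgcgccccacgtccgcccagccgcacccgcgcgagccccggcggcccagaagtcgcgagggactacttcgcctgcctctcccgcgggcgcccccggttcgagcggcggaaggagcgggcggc
The capitals mark a CRE in *Dusp1* and a pair of CArG boxes in *Dusp5*.

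Over the whole 300 bases and on both strands, 5 motifs were searched: the ETS core CCGGAA, the STAT site TTCNNNGAA, the AP-1 site TGANTCA, the CRE TGACGTCA and the CArG box, the site of serum response factor. *Dusp5* held 2 CArG boxes side by side, starting 82 and 72 bases before the start, and 1.63% of all 32851 promoters held at least 1. *Dusp1* held a CRE that starts 143 bases before the start (1.79% of promoters), and *Spry2* an ETS core 34 bases into the transcript (14.9% of promoters). No STAT or AP-1 letters were found in the 8 windows (8.30% and 7.81% of promoters), and none of the 5 motifs in those of *Dusp2*, *Dusp6*, *Dusp10*, *Spry1* and *Spred1*. A match describes letters, and a window without one says nothing of sites elsewhere.

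*Dusp1*, *Dusp2*, *Dusp4* and *Dusp5* encode the inducible phosphatases of the nucleus. *Dusp2* (ENSMUSG00000027368, chromosome 2 of GRCm39, 127177957 to 127180296), first known from activated lymphocytes and active on ERK and p38, was measured at 11.9, 12.8 and 14.6 CPM in control 1, 2 and 3 and at 4.07, 5.61 and 6.01 CPM in *Gp130* ecKO 1, 2 and 3. The lowest control uterus was about 2-fold above the highest *Gp130* ecKO uterus. *Dusp2* was 2.50-fold lower (log2 fold change −1.32, SE 0.27, 95% interval −1.95 to −0.70, adjusted p = 0.0717), the smallest p of the 10 genes. Leaving out any 1 uterus kept its log2 fold change between −1.40 and −1.17.

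*Dusp4* (ENSMUSG00000031530, chromosome 8, 35274442 to 35287048), whose product acts on ERK and JNK, was measured at 2.31, 2.85 and 16.1 CPM in the control and at 1.27, 0.769 and 0.622 CPM in *Gp130* ecKO. Control 3 stood far above the other control uteri, and the *Gp130* ecKO uteri were the 3 lowest. These values rest on 57, 74 and 242 counts in the control and 28, 20 and 15 in *Gp130* ecKO. Its fitted log2 fold change was −2.97 (SE 0.85, 95% interval −4.96 to −0.98, adjusted p = 0.111), the largest of the 10 genes in size. It was −1.55 without control 3, so the size of the difference rested on that uterus while the order of the groups did not.

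*Dusp5* (ENSMUSG00000034765, chromosome 19, 53517532 to 53530862), which encodes a phosphatase selective for ERK that also holds it in the nucleus, was measured at 8.70, 4.78 and 14.1 CPM in the control and at 3.66, 3.27 and 3.19 CPM in *Gp130* ecKO. The control uteri were spread over a 3-fold range, and the *Gp130* ecKO uteri lay together just below the lowest of them, control 2. The log2 fold change was −1.43 (SE 0.42, adjusted p = 0.113). It was −1.0 without control 3. Without control 2 it was −1.71 with an adjusted p of 0.0456 in the quasi-likelihood test of edgeR, so that *Dusp5* then passed both thresholds, which 1.81% of all genes did in the lower direction. Its promoter is the one with the pair of CArG boxes shown above.

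*Dusp1* (ENSMUSG00000024190, chromosome 17, 26724564 to 26781102), an early stress-response gene whose product acts on p38 and JNK as well as ERK, was measured at 19.9, 17.1 and 10.6 CPM in the control and at 18.9, 11.4 and 13.1 CPM in *Gp130* ecKO. Both groups covered nearly the same range. The log2 fold change was −0.13 with a 95% interval of −0.87 to 0.60 (adjusted p = 0.809), so a difference of the size seen for *Dusp2* lay outside the interval. Within each uterus, the TPM ratio of *Dusp2* to *Dusp1* was 0.685, 0.892 and 1.72 in the control and 0.266, 0.597 and 0.579 in *Gp130* ecKO. The ratio was lower in every *Gp130* ecKO uterus (exact permutation p = 0.1, the smallest that 3 against 3 uteri can give).

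*Dusp6* (ENSMUSG00000019960, chromosome 10, 99086564 to 99103361) encodes the cytoplasmic phosphatase that is most selective for ERK and is a common transcript readout of FGF signaling. It was measured at 91.5, 78.5 and 66.6 CPM in the control and at 47.2, 30.5 and 52.4 CPM in *Gp130* ecKO. The groups did not overlap, and the gap between control 3 and *Gp130* ecKO 3 was similar in size to the SD within each group (12.5 and 11.5 CPM). The log2 fold change was −0.86 (SE 0.24, 95% interval −1.42 to −0.30, adjusted p = 0.105), which is 1.82-fold lower and short of the 2-fold limit whatever the p.

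*Dusp10* (ENSMUSG00000039384, chromosome 1, 183745499 to 183807842) differs from the others in that its product acts on p38 and JNK and hardly on ERK. It was measured at 2.63, 2.58 and 2.87 CPM in the control and at 0.995, 1.38 and 1.29 CPM in *Gp130* ecKO, from 22 to 67 counts per uterus. The lowest control uterus was well above the highest *Gp130* ecKO uterus, and each group was narrow. The log2 fold change was −1.13 (SE 0.33, 95% interval −1.91 to −0.35, adjusted p = 0.113), and it stayed between −1.23 and −1.0 whichever uterus was left out.

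Among the Sprouty genes, the groups were separate for *Spry4* and overlapped for *Spry2* and *Spry1*. *Spry4* (ENSMUSG00000024427, chromosome 18), whose product restrains receptor signaling to RAS and RAF, was measured at 9.26, 6.17 and 11.8 CPM in the control and at 2.80, 4.81 and 4.23 CPM in *Gp130* ecKO. Its groups were separate, with control 2 nearest to the *Gp130* ecKO uteri, and the log2 fold change was −1.19 (SE 0.36, 95% interval −2.03 to −0.35, adjusted p = 0.117). *Spry2* (ENSMUSG00000022114, chromosome 14, 106128766 to 106136446), a Sprouty with broad tissue expression, was measured at 27.1, 34.1 and 28.7 CPM in the control and at 42.6, 26.9 and 20.1 CPM in *Gp130* ecKO. The *Gp130* ecKO values spread to both sides of the control, with a log2 fold change of −0.01 (95% interval −0.68 to 0.67, adjusted p = 0.992) whose sign turned under several settings. The TPM ratio of *Spry4* to *Spry2* was 0.147, 0.0778 and 0.177 in the control and 0.0282, 0.0769 and 0.0906 in *Gp130* ecKO, with overlap between the groups (exact permutation p = 0.2).

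*Spry1* (ENSMUSG00000037211, chromosome 3, 37693897 to 37698755), which is known for restraining growth factor signaling in the developing kidney, was measured at 28.4, 16.3 and 13.8 CPM in the control and at 19.7, 9.27 and 14.6 CPM in *Gp130* ecKO. The groups overlapped, and control 1 was the highest of the 6 uteri. The log2 fold change was −0.43 (95% interval −1.31 to 0.44, adjusted p = 0.493) with all uteri and −0.03 without control 1.

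*Spred1* (ENSMUSG00000027351, chromosome 2, 116951524 to 117018277), the partner of neurofibromin, was the 1 gene of the 10 that went the other way. It was measured at 85.0, 87.1 and 71.3 CPM in the control and at 104, 106 and 126 CPM in *Gp130* ecKO. All *Gp130* ecKO values lay above all control values, and the difference was 1.38-fold (log2 fold change 0.46, SE 0.16, 95% interval 0.08 to 0.84, adjusted p = 0.146). Leaving out single uteri gave 0.38 to 0.55.

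**Figure D2:**
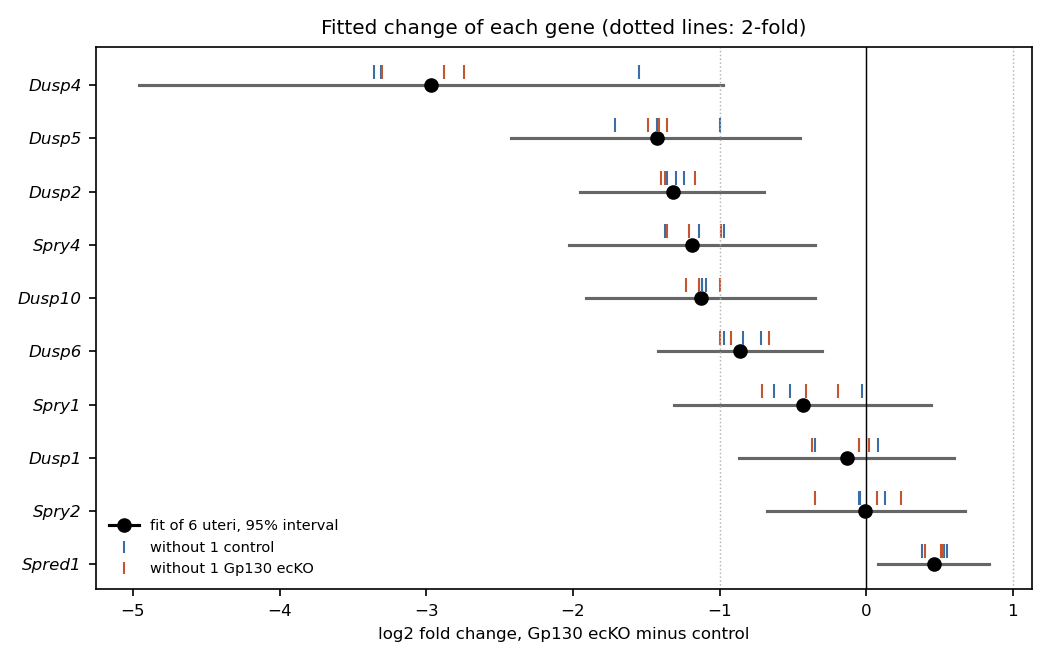
Fitted log2 fold change of each gene (*Gp130* ecKO minus control, horizontal axis) with its 95% interval from all 6 uteri, and ticks above it for the fits without 1 control or 1 *Gp130* ecKO uterus; dotted lines mark 2-fold. The 7 genes whose groups were separate have intervals on one side of 0, from *Dusp4* at −2.97 to *Spred1* at 0.46, and the tick of *Dusp4* at −1.55 is the fit without control 3.

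The plot of fitted changes shows *Dusp4* with the widest interval and *Spred1* with the narrowest. Calls of these genes depended on the test. DESeq2 called *Dusp2*, *Dusp4*, *Dusp5*, *Dusp10* and *Spry4* (adjusted p = 0.000135, 0.00357, 0.0179, 0.0391 and 0.0238), with 5.21% of all genes called lower by it. The exact test of edgeR called *Dusp2*, *Dusp4* and *Dusp5* (adjusted p = 0.00724, 0.0146 and 0.0454), with 3.79% of all genes called lower, and its likelihood ratio test called the same 3 with 4.01% of all genes called lower. *Dusp6* had an adjusted p of 0.0335 by DESeq2 and 0.0417 by the exact test but less than 2-fold change. For each of the 7 genes with separate groups, the exact permutation test of 3 against 3 uteri gave its smallest possible p of 0.1.

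Levels were compared between genes in the deposited TPM, which is scaled for transcript length. In the control, *Dusp6* was the most abundant feedback transcript at 43.4 ± 2.80 TPM (SD, n = 3), clear of *Spry2* at 19.5 ± 2.69 and *Spred1* at 17.9 ± 1.13, which overlapped. *Dusp2* (11.8 ± 2.33), *Dusp1* (11.7 ± 3.06) and *Spry1* (10.4 ± 3.59) formed an overlapping middle group. With lower means, *Dusp5* (5.06 ± 2.82), *Dusp4* (3.62 ± 4.14) and *Spry4* (2.55 ± 0.895) overlapped in turn. The ranges of *Dusp5* and *Dusp4* (up to 8.13 and 8.39 TPM) also overlapped that of *Spry1* (from 7.89 TPM). *Dusp10* had the lowest mean at 1.31 ± 0.174, clear of *Spry4* but within the range of *Dusp4*.

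In *Gp130* ecKO the order was different at the top. *Spred1* led at 25.9 ± 1.29 TPM, with *Dusp6* at 22.8 ± 4.24 and *Spry2* at 20.6 ± 8.54, and these 3 ranges overlapped. *Dusp2* at 5.02 ± 0.898 TPM came after *Dusp1* (11.3 ± 3.52) and *Spry1* (8.24 ± 2.86). *Dusp5* (1.94 ± 0.254), *Spry4* (1.17 ± 0.362), *Dusp10* (0.620 ± 0.135) and *Dusp4* (0.460 ± 0.187) were lowest, the last pair with overlap. The TPM ratio of *Dusp6* to *Spred1* within a uterus, which no scaling of libraries can move, was 2.56, 2.11 and 2.64 in the control and 1.02, 0.665 and 0.969 in *Gp130* ecKO. *Dusp6* thus exceeded *Spred1* by more than 2-fold in each control uterus and was about level with it or below it in each *Gp130* ecKO uterus, which follows from their opposite directions. The TPM ratio of *Dusp6* to *Spry2* was 2.74, 1.83 and 2.26 in the control and 0.851, 0.888 and 2.06 in *Gp130* ecKO, and its groups overlapped (exact permutation p = 0.2).

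**Figure D3:**
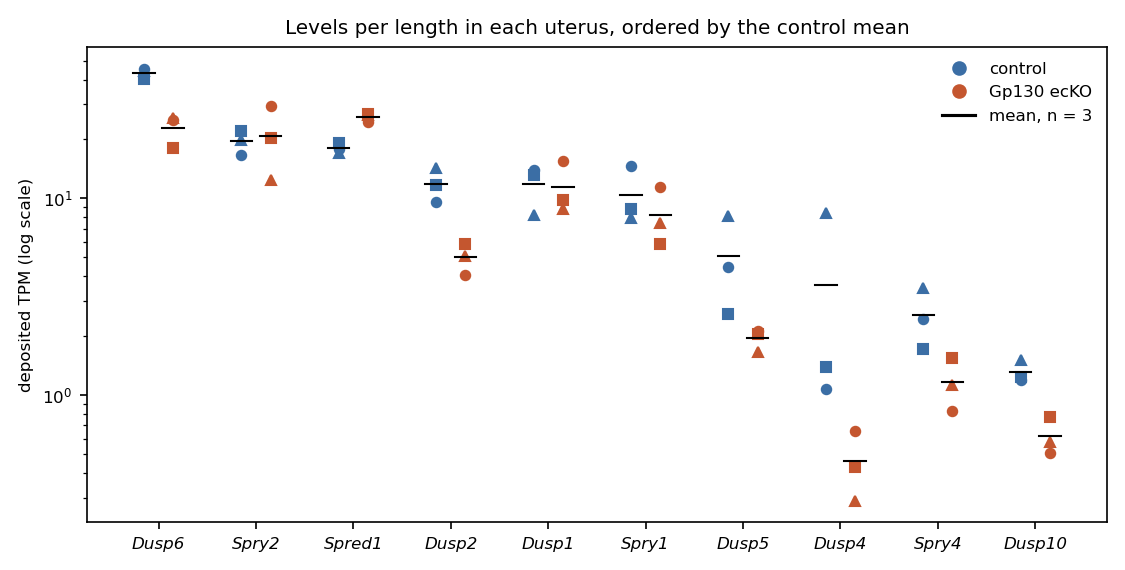
Deposited TPM (log scale) of the 10 genes in each uterus, ordered by the control mean, with circles, squares and triangles for uterus 1, 2 and 3 and a line for the mean. *Dusp6* leads in the control at 43.4 TPM, and *Spred1* in *Gp130* ecKO at 25.9 TPM.

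Other genes of the pathway were counted in 10 lists, in which no gene had an FDR below 0.05 in the quasi-likelihood test. Of their 99 tested genes, 19 had one in DESeq2 (14.3% of all genes) and 18 in the exact test of edgeR (8.99% of all genes), 9 of them immediate early genes in each test. Fitted changes of relatives of the 10 genes lay on both sides of 0. Of 3 tested genes among the other MAP kinase phosphatases, *Dusp16*, whose product acts on JNK and p38, was higher at 41.3, 85.4 and 50.3 CPM in the control against 135, 129.5 and 90.2 CPM in *Gp130* ecKO, a 2.00-fold difference (adjusted p = 0.116, and 0.0304 by DESeq2). *Dusp7*, the closest relative of *Dusp6*, had a log2 fold change of −0.57 (adjusted p = 0.206) and *Dusp8* one of −0.30 (adjusted p = 0.622). Among 11 tested atypical phosphatases (median −0.34) 1, *Dusp23*, was lower (12.9% of all genes) and 0 were higher (12.1% of all genes) at an unadjusted p below 0.05. *Spred3* had a log2 fold change of −1.24 (adjusted p = 0.149) and *Spred2* one of 0.38 (adjusted p = 0.316). Fitted values of the Spred genes thus lay on both sides of 0, none with an FDR below 0.05 in the quasi-likelihood test.

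Most immediate early genes and most other transcripts of a published MAPK activity score had a lower fitted level. ERK activity was not measured, and these lists were not divided by sums of cell type markers. What part the make-up of the tissue has in their values was not tested. Among 18 tested immediate early genes the median log2 fold change was −1.18. At an unadjusted p below 0.05, 11 were lower (12.9% of all genes) and 1 was higher (12.1% of all genes). The higher one was *Ier3* at 1.34 (adjusted p = 0.0897, and 0.005 by DESeq2). *Egr1*, a zinc finger factor induced by ERK through serum response factor, was at 132, 60.5 and 125 CPM in the control and at 18.7, 26.8 and 16.5 CPM in *Gp130* ecKO, with no overlap (log2 fold change −2.36, adjusted p = 0.0548, and 9.02e-08 by DESeq2). *Fos*, *Klf2* and *Junb* had log2 fold changes of −2.38, −1.15 and −1.23 (adjusted p = 0.0638, 0.0677 and 0.0730, and 1.97e-05, 0.00134 and 0.00155 by DESeq2). Control 2 had the lowest control value of *Egr1*, *Fos*, *Klf2* and *Junb*, as it did of *Dusp5*, *Dusp10* and *Spry4*. It was not the lowest control uterus for every lower immediate early gene. Of the 6 transcripts that share a published MAPK activity score with *Dusp4*, *Dusp6*, *Spry2* and *Spry4*, 5 had a lower fitted level and 1, *Epha4*, a higher one, with a median of −0.74. Of these 6, 3 were lower (12.9% of all genes) and 1 was higher (12.1% of all genes) at an unadjusted p below 0.05. The lower ones were *Etv4* (−1.41), *Ccnd1* (−0.73) and *Epha2* (−1.11, with overlap between the groups). Their adjusted p was 0.157, 0.167 and 0.183 in the quasi-likelihood test, and 0.143, 0.127 and 0.104 by DESeq2. *Epha4* was higher at 2.22 (adjusted p = 0.108, and 0.00492 by DESeq2).

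The cascade upstream lay on both sides of 0. The 20 genes of the RAS, RAF, MEK and ERK cascade had a median log2 fold change of 0.07. Of these, 4 were higher (12.1% of all genes) and 1 was lower (12.9% of all genes) at an unadjusted p below 0.05. *Frs2*, the adaptor that links FGF receptors to RAS, had the smallest p among them at 0.70 (adjusted p = 0.0821, and 0.00260 by DESeq2), and *Ksr1*, a scaffold of RAF and MEK, was the lower one at −1.15 (adjusted p = 0.158). The 10 other feedback inhibitors, such as *Cblb* at −0.55 (adjusted p = 0.205), had a median of 0.06 and none with an unadjusted p below 0.05. Of 11 p38 and JNK kinases only *Map2k6*, a p38 activator, had such a p, at 1.49 (adjusted p = 0.0752, and 0.000918 by DESeq2).

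The ligands and receptors held large differences in both directions. *Areg*, the EGF receptor ligand amphiregulin, was at 34.1, 16.1 and 127 CPM in the control and at 0.136, 1.73 and 1.04 CPM in *Gp130* ecKO, with no overlap (log2 fold change −5.89, adjusted p = 0.0636, and 1.46e-09 by DESeq2), while *Nrg1* was higher at 1.71 (adjusted p = 0.118, and 0.0375 by DESeq2) and the median of the 9 tested EGF family genes was 0.63. Of 9 tested FGF genes, 6 had a lower and 3 a higher fitted level, with a median of −1.03. At an unadjusted p below 0.05, 4 were lower (12.9% of all genes) and 1 was higher (12.1% of all genes). They included the receptors *Fgfr1* at −1.03 (adjusted p = 0.0821, and 0.00226 by DESeq2) and *Fgfr3* at −1.65 (adjusted p = 0.105, and 0.0239 by DESeq2). The third tested receptor, *Fgfr2*, was at 316, 295 and 271 CPM in the control and at 502, 444 and 265 CPM in *Gp130* ecKO. Its groups overlapped (log2 fold change 0.46, adjusted p = 0.298). Ligands with such an unadjusted p included *Fgf9* at −3.03 (adjusted p = 0.144, and 0.0129 by DESeq2) and *Fgf1* at 2.37 (adjusted p = 0.142, and 0.0150 by DESeq2). The groups of *Fgf9* overlapped, with control 1 at 44.0 CPM against 2.08 and 12.3 in the other control uteri.

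**Figure D4:**
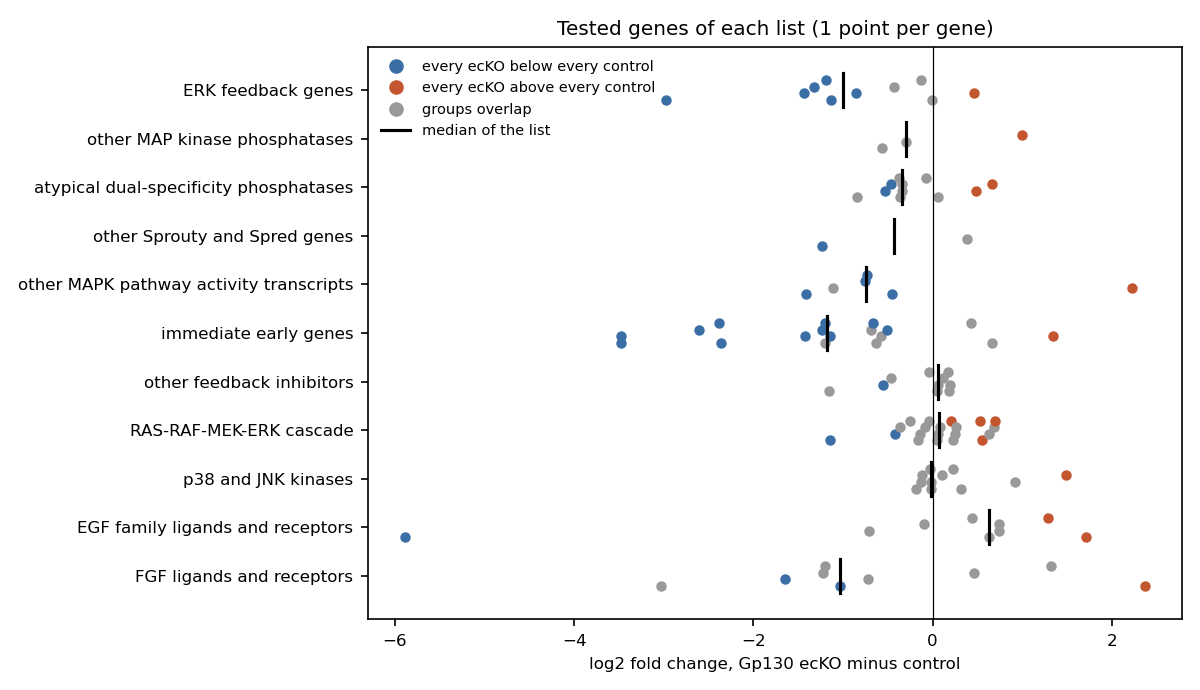
Log2 fold change (*Gp130* ecKO minus control, horizontal axis) of each tested gene in the 10 feedback genes and the 10 lists of the pathway, colored by whether the groups are separate, with a black line at each median. The medians of the feedback genes (−1.0), the immediate early genes (−1.18) and the FGF genes (−1.03) lie lowest, and those of the cascade (0.07) and of other feedback inhibitors (0.06) lie near 0.

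The plot of lists shows the lowest medians for the immediate early genes, the FGF ligands and receptors and the feedback genes, and points on both sides of 0 among the cascade genes. These lists overlap in biology and share the same 6 uteri, so they do not count as separate evidence.

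Since markers of epithelium, stroma and endothelium differed between the groups, each feedback gene was also divided by the marker sum of its own uterus. Per 1000 CPM of stroma markers, *Dusp2* was at 4.20, 4.22 and 5.52 in the control and 3.14, 3.28 and 3.33 in *Gp130* ecKO. The groups remained separate, but the difference was smaller. Its log2 ratio of means was −0.52 (−0.37 without control 3), beside a fitted log2 fold change of −1.32. On that scale *Dusp6* was at 32.3, 25.8 and 25.2 against 36.4, 17.8 and 29.1, and its groups overlapped. In all, *Dusp2* and *Dusp10* were lower per stroma markers (1.28% of all genes) and *Spred1* was higher (53.2% of all genes). The log2 ratio was −0.32 for *Dusp10*, beside a fitted log2 fold change of −1.13, and 1.31 for *Spred1*, beside 0.46.

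Per 1000 CPM of endothelium markers, *Dusp2* was at 14.5, 22.3 and 42.6 in the control and 22.0, 16.9 and 22.8 in *Gp130* ecKO. None of the 10 genes was lower with separate groups on that scale (0.422% of all genes), and *Dusp1* and *Spred1* were higher (42.3% of all genes). Per epithelium markers all 10 genes were lower, where 76.0% of all genes were lower and 1.07% were higher. The division thus moves nearly every gene with the marker sum, and 6 lower genes became 2 per stroma markers and 0 per endothelium markers. What part the make-up of the tissue has in the lower values was not tested.

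**Figure D5:**
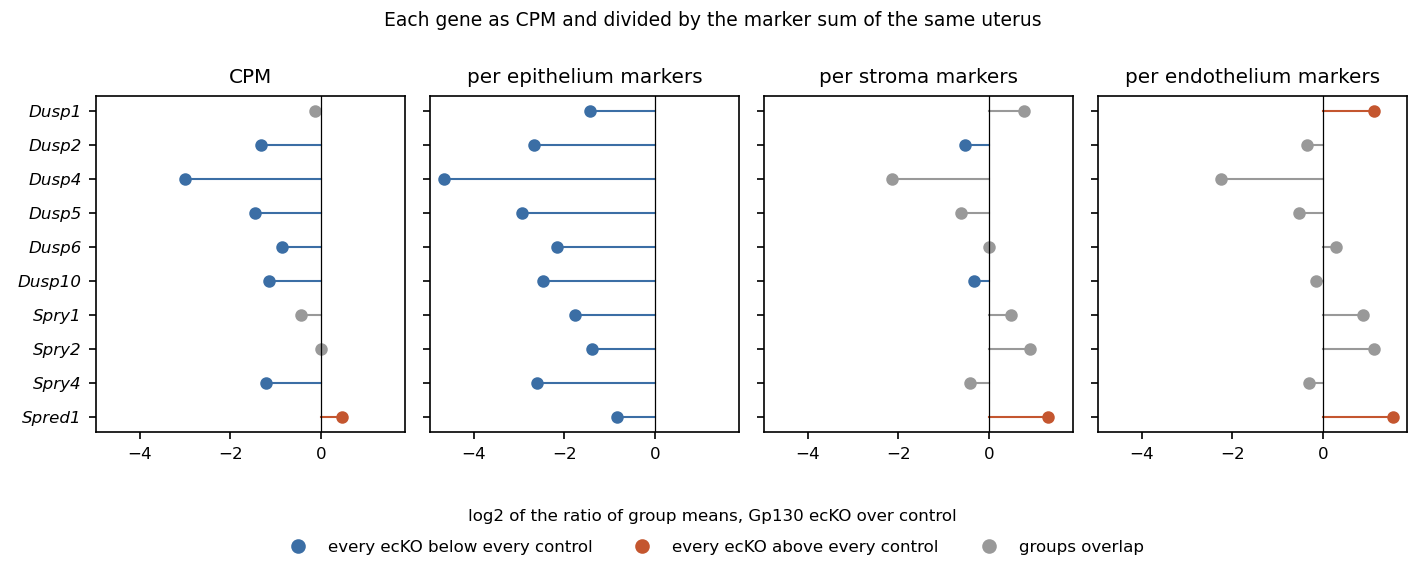
Log2 of the ratio of group means (*Gp130* ecKO over control) of each gene as CPM and after division by the summed epithelium, stroma or endothelium markers of the same uterus, colored by whether the groups are separate. The 6 genes that are lower in CPM (15.6% of all genes) become 2 per stroma markers (1.28%) and 0 per endothelium markers (0.422%). Per epithelium markers all 10 are lower, as are 76.0% of all genes.

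The plot of ratios shows 3 genes that were separate in CPM and per stroma markers alike, *Dusp2* and *Dusp10* lower and *Spred1* higher. *Dusp4* had log2 ratios of −2.15 per stroma and −2.25 per endothelium markers that rested on control 3, and they were −0.57 and −0.02 without it. Per endothelium markers, the 5 genes with a log2 ratio below −0.05 became 0 without control 3, and the median of the 10 went from 0.07 to 0.56. The groups of *Dusp4* overlapped on both scales, since *Gp130* ecKO 1 lay above control 1 and control 2.

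Reads of neighbouring genes could enter some of these counts. None of the 10 genes shared a stretch of 75 bases with another transcript on the same strand. On the opposite strand, 21.4% of such stretches of *Dusp2*, 19.4% of *Dusp5*, 17.9% of *Dusp6*, 16.1% of *Spry1*, 11% of *Dusp10* and 8.11% of *Spry2* also lay in an antisense transcript of another gene. The libraries were strand specific, but whether strand was used in the counting is not given in the sources used here.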

How the data were processed

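RNA-seq of whole uteri (3 control, 3 *Gp130* ecKO) was deposited by the authors as 1 RSEM gene table per uterus. Per the submitters' processing notes, reads were handled with fastp 0.23.2, STAR 2.7.10a and RSEM 1.3.3 on GRCm39. The deposited expected counts are not normalized, and the deposited TPM and FPKM had been scaled by the authors for gene length and for depth; FPKM was read but no value of it is used. Expected counts were rounded and fitted over 16605 genes with edgeR 4.0.16 in R 4.3.3 (filterByExpr, TMM, glmQLFit without the legacy setting, glmQLFTest). P-values were adjusted after Benjamini and Hochberg over all these genes, and calls needed an FDR below 0.05 and over 2-fold change. SE is the log2 fold change divided by the root of F. DESeq2 1.42.0 gave an adjusted p for 15594 genes. Permutation tests were exact and two-sided, on log2(CPM + 0.5) or log2 ratios.

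Total counts per uterus were 13960748 to 25906443. Symbols and coordinates came from GENCODE M39 on GRCm39 (56017 of 56748 identifiers matched), and promoters from RefSeq on GRCm38.p6. The 10 genes, the gene lists and the marker lists were chosen with earlier results of these data known. All 10 genes are named. Of each other list, the genes past an FDR of 0.05 or else up to 4 with the smallest p were eligible. *Ier3*, *Epcam* and *Fgfr2* were named outside that rule. Fits were tested on simulated data, of which no result is used here. No pair of libraries of a group had nearly equal counts. Alternatives were other tests, scalings and filters, counts without rounding, a replicate block, and fits without 1 or 2 uteri; division by marker sums was added after seeing the data.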

Additional observations from a re-analysis of the deposited data

How the results depend on the processing

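The number of feedback genes called was 0 in the quasi-likelihood fit of edgeR, where 0.0301% of all genes were called lower. It was 3 with the exact test (3.79% of all genes called lower), 3 with the likelihood ratio test (4.01%) and 5 with DESeq2 (5.21%). With single uteri left out it was 0 to 1, the 1 being *Dusp5* without control 2 (1.81%). In the quasi-likelihood fit with 0 called, 6 were lower (12.9% of all genes) and 1 was higher (12.1% of all genes) at an unadjusted p below 0.05. After division by marker sums, the number with separate groups was 3 for stroma, 2 for endothelium and 10 for epithelium, in place of 7. Of all genes, 1.28% were lower and 53.2% higher with separate groups per stroma markers. These shares were 0.422% and 42.3% per endothelium markers, 76.0% and 1.07% per epithelium markers, and 15.6% and 15.7% in CPM. The median log2 ratio of the 10 genes after division was −0.16 for stroma, 0.07 for endothelium and −2.32 for epithelium. Without control 3 this median was −0.09, 0.56 and −2.08. Under the alternatives without such division, the median log2 fold change was between −1.07 and −0.92. Upper quartile scaling moved the median of all genes to −0.114. Among these, the sign turned for 2 genes near 0: *Dusp1* ranged from −0.37 to 0.08 with single uteri left out, and *Spry2* from −0.35 to 0.24, with 0.01 under DESeq2, 0.01 with RLE size factors and 0.03 without the filter on low counts. The cause was not tested. With the replicate block, 0 feedback genes were called, and 6 genes in all in place of 26. Uteri with the same number correlated at 0.102, 0.0613 and −0.19, so the numbers were not taken to pair them. Groups of 3 limit the precision throughout, and *Dusp4* and *Dusp10* rest on under 100 counts in most uteri.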

Other observations

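Control 3 was singled out after its values were seen. It had the highest CPM of *Dusp4* (16.1, against 2.31 and 2.85 in the other control uteri) and of *Dusp5* (14.1, against 8.70 and 4.78), and also of the EGF receptor ligand gene *Areg* (127, against 34.1 and 16.1). *Dusp6* was lowest there among the control uteri (66.6, against 91.5 and 78.5), as was *Dusp1* (10.6, against 19.9 and 17.1). Control 3 was also the library with the fewest counts. Among the control uteri it had the lowest sum of smooth muscle markers (536 CPM, against 2592 and 1978). Its sums were also lowest for endothelium (342, against 820.1 and 576) and epithelium (2069.9, against 2743 and 3848). The same held for stroma (2644, against 2832 and 3045) and glands (108, against 1063 and 209). Its sum of leukocyte markers was the highest (92.4, against 52.7 and 62.4), and that of erythrocyte markers lay between the others. No test was made of these values.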
